A study of Mus musculus with 2 samples.

Results

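Transcripts of 10 genes that are known from germ cells were described in urogenital ridges of mouse embryos from which the gonads had been taken off. The 10 genes were Dazl, Ddx4, Mael, Tex15, Ddx25, Dppa3, Dppa5a, Pou5f1, Kit and Rpl39l, of 18193 genes that have a probe set of their own on the array, and they were represented by 12 of 45037 probe sets. They were picked with the difference between the pools already known, so their differences are given as a description and support nothing by themselves. The samples were a pool of about 100 ridges that lack Misr2 on both alleles (Misr2-/-), called unresponsive to Müllerian inhibiting substance in the labels, and a pool of about 100 ridges with 1 deleted allele (Misr2+/-), called responsive. Both pools were collected at E14.5 from a mix of C57Bl/6 and 129SVEV and scored for genotype with a YFP reporter, so that no pool was wild type, and the labels name no other treatment. The gene, now named Amhr2, makes the type II receptor of that hormone, which the fetal testis secretes and which removes the Müllerian duct in males. Each group had 1 array, so no difference was tested and no value has a replicate error.

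Germ cells of the mouse arise outside the gonad, migrate along the hindgut and settle in the gonadal ridge before the stage studied here, where they stay in close contact with Sertoli or granulosa cells. While they migrate and after they settle they express pluripotency factors such as Pou5f1 and the receptor Kit, and after settling they switch on RNA regulators such as Dazl and Ddx4. Many genes of this programme are kept silent in somatic cells by promoter methylation and by a repressor complex that binds E-boxes through MAX and MGA and E2F sites through E2F6. A few germ cells can also be found outside the gonad, in the adrenal gland and the neighbouring mesonephros.

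Promoter sequences are shown for members with contrasting signals, because the letters bound by that complex can be read directly in them. They come from RefSeq (GRCm38.p6), run 5′ to 3′ on the strand of the gene, and cover 250 bases before to 50 bases after the start. Capitals mark matches on either strand to the E-box CACGTG or to the E2F core TCCCGC, whose other strand reads GCGGGA. The Ddx4 window was chr13:112652261-112652560 on the minus strand, the Mael window chr1:166238695-166238994 on the minus strand, the Ddx25 window chr9:35558421-35558720 on the minus strand and the Dazl window chr17:50293571-50293870 on the minus strand.
Ddx4: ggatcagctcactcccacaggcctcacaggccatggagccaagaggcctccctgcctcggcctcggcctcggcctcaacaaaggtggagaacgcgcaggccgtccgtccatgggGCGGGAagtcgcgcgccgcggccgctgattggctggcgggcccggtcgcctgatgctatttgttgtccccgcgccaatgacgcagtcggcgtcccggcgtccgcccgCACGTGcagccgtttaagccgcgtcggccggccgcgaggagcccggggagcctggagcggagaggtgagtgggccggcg
Mael: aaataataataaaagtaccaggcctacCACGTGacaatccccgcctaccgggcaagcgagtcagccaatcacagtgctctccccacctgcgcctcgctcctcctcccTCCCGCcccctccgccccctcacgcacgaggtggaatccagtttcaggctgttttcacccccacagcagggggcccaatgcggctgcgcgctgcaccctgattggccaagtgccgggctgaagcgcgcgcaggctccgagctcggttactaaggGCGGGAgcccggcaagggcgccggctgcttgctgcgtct
Ddx25: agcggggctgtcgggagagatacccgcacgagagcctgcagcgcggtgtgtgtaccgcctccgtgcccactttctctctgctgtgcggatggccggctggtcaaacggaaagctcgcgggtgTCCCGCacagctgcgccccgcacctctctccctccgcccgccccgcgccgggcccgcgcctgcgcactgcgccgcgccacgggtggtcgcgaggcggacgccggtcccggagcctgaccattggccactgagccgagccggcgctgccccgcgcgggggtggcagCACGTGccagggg
Dazl: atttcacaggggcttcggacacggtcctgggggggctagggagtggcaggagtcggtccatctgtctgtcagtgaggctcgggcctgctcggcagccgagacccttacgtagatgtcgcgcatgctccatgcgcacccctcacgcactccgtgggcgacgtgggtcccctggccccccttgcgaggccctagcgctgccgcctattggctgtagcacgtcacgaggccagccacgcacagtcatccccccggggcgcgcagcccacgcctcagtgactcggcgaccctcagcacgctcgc

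Of the 10 genes, 7 matched the promoter table, with 9 windows between them, since Kit and Pou5f1 have more than 1 start, and Dppa3, Dppa5a and Tex15 did not match. Ddx4, Mael and Ddx25 held both an E-box and an E2F core, which makes 3 of 9 windows, against 1.99% of all 32851 promoters. Counted separately, the E-box was in 7.15% and the E2F core in 20.0% of all promoters. The octamer ATGCAAAT, searched on both strands, was in 0 of 9 windows and in 1.74% of all promoters, and none of the motif matches overlapped. The windows of Dazl, Rpl39l and Pou5f1 held none of these letters, and the windows of Kit held the E2F core only. Ddx25 had 41 CG dinucleotides, Ddx4 38, Dazl 28, Mael 24 and Rpl39l 17, against a median of 7 over all promoters. The Kit windows, which overlap almost entirely, had 20 and 21, and those of Pou5f1 had 11 and 6. Of the 9 windows 8 were above the median, and the shares of all promoters with a motif were not matched for CG. Matches are letters in a window and say nothing about binding in these ridges, and they were shared by Ddx4, whose signal was lower in the Misr2-/- pool, and by Ddx25, whose signal was not.

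The signals are linear intensities as deposited, and the homozygous array was the brighter, with a median of 139.4 against 116.5 in the heterozygous array. These medians served as a floor: a gene was taken as measured if it reached the floor on either array, and lower signals were raised to the floor, so that the resulting fold is a lower bound. Differences are log2 values of the Misr2-/- minus the Misr2+/- signal after each array was divided by its median, which removes a shift of 0.26. Without this step values from -0.26 to 0 change sign, and on the scale of the hybridisation spikes, control transcripts added to every array, values from 0 to 0.40 do. As a measure of noise, log2 differences from separate probe sets of 1 gene had an SD of 0.23 over 5264 genes, and 0.28 over the 284 genes in the signal range of the lower members. This spread leaves out any variation between pools. It includes bounds, in which a signal under the floor was raised to it, so the noise of dim signals is not fully shown. Amhr2, the targeted gene, had signals of 10.2, 27.7 and 2.8 in the Misr2-/- pool, against 1549.6, 1047.8 and 181 in the Misr2+/- pool, in the direction of the labels. Of 7 markers of the ridge (Pax2, Pax8, Lhx1, Emx2, Wt1, Wnt4 and Osr1), all 6 that have a probe set of their own were above the floor in both pools. Among them Osr1, a transcription factor of the early ridge, had 165.4 in the Misr2-/- pool and 304.4 in the Misr2+/- pool, 2.20-fold lower, and Wnt4 had a log2 difference of -0.49, and both stayed below 0 under each of 6 scalings. Emx2 (0.47), Pax8, Lhx1 and Wt1 were above 0, and of these Emx2 alone stayed above 0 against the spikes. The part of ridge tissue in the germ cell values was not tested.

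Of the 10 genes, 6 had signals above the floor in both pools: Dazl, Dppa3, Dppa5a, Kit, Tex15 and Ddx25. Rpl39l, Ddx4 and Pou5f1 were above it in the Misr2+/- pool only, which fixes the direction of their difference, and Mael was under it in both. Among the 9 measured genes, 6 were below 0, as were 42.3% of all measured genes. Of these, 4 were at least 1.5-fold lower in the Misr2-/- pool, namely Dazl, Dppa3, Dppa5a and Rpl39l, and 0 were at least 1.5-fold higher. Over all 11432 measured genes 0.883% were at least 1.5-fold lower and 2.08% at least 1.5-fold higher. Among the 1148 genes with a mean signal between 195.1 and 301.05, the range of these 4 genes, 2.44% were at least 1.5-fold lower. The same 4 genes were also at least 2-fold lower, as were 0.219% of all measured genes. Because the genes were picked on this contrast, nothing is read from these counts.

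**Figure D1:**
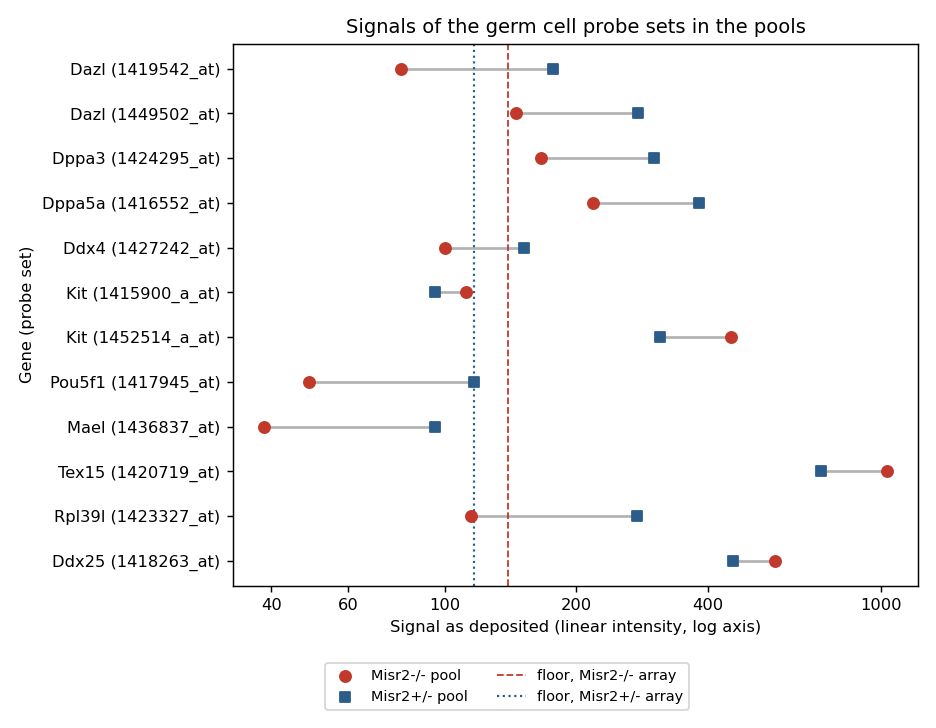
Signal of each of the 12 germ cell probe sets (horizontal log axis, linear intensity as deposited) in the Misr2-/- pool (circles) and the Misr2+/- pool (squares), with each array's floor as a vertical line. In 8 probe sets the Misr2-/- signal lies left of the Misr2+/- signal, and in the 4 probe sets of Kit, Tex15 and Ddx25 it lies right of it.

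Dazl, Ddx4 and Mael, which regulate RNA in germ cells, were at low signals in both pools. Dazl, an RNA-binding protein that commits germ cells to their fate after they settle, had a signal of 145.6 in the Misr2-/- pool and 277.2 in the Misr2+/- pool on its brighter probe set (1449502_at). Its log2 difference was -1.19, a 2.28-fold lower level in the Misr2-/- pool. The other Dazl probe set (1419542_at) had 79.2 in the Misr2-/- pool and 176.7 in the Misr2+/- pool, at least 1.52-fold lower, so both probe sets ran the same way. Ddx4, the mouse Vasa homologue and an RNA helicase of germ granules, had a signal of 100.2 in the Misr2-/- pool and 151.9 in the Misr2+/- pool, at least 1.30-fold lower. Mael, a protein of the piRNA pathway that represses transposons, had 38.5 in the Misr2-/- pool and 94.8 in the Misr2+/- pool, both under the floor, so no fold is computed for it. In the Misr2-/- array only the brighter Dazl probe set was above the floor, at the percentile rank 50.8 of all probe sets, against rank 64.6 in the Misr2+/- array.

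Tex15 and Ddx25, the other genes known from RNA and genome regulation in male germ cells, did not share this difference. Tex15, needed for meiotic recombination and for piRNA-directed silencing in male germ cells, had a signal of 1033.5 in the Misr2-/- pool and 729.9 in the Misr2+/- pool, a log2 difference of 0.24. Ddx25, a gonadotropin-regulated RNA helicase of Leydig cells and spermatids, had 570.6 in the Misr2-/- pool and 457.3 in the Misr2+/- pool, a log2 difference of 0.06. The Ddx25 value was smaller than the spread between probe sets of a gene, and the Tex15 value was close to it. Both genes turned negative when the arrays were scaled to the hybridisation spikes, at -0.16 for Tex15 and -0.34 for Ddx25. Each rests on 1 probe set. Of the helicase paralogues, Ddx3x had a log2 difference of -0.09 (0.17 as deposited), Ddx6 of 0.26 (-0.15 against the spikes) and Ddx19b of 0.01 (-0.40 against the spikes), and further probe sets of Ddx6 ran the other way, down to -0.76.

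Of the 3 genes linked to pluripotency, Dppa3 and Dppa5a were at least 2-fold lower in the Misr2-/- pool and Pou5f1 was too dim for a size. Dppa3, also called Stella, a protein of primordial germ cells and oocytes that protects DNA methylation in the zygote, had a signal of 165.6 in the Misr2-/- pool and 301.7 in the Misr2+/- pool, 2.18-fold lower. Dppa5a, an RNA-binding protein of pluripotent cells and fetal germ cells, had 219 in the Misr2-/- pool and 383.1 in the Misr2+/- pool, 2.09-fold lower. Both were above the floor in both pools. Pou5f1, which encodes the pluripotency factor Oct4, had 48.8 in the Misr2-/- pool and 116.8 in the Misr2+/- pool. The Misr2+/- signal lay just above its floor, so the size of the difference cannot be stated. Without a floor and with a pseudocount of 16, Pou5f1 had a log2 difference of -1.25 and Mael of -1.23, beside -1.10 for Dazl, -1.05 for Dppa3 and -1.01 for Dppa5a. The Pou5f1 value rests on a Misr2-/- signal below the median of its array, and the Mael value on signals below it in both pools.

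Rpl39l, a ribosomal protein paralogue made mainly in male germ cells, had a signal of 114.5 in the Misr2-/- pool and 275.7 in the Misr2+/- pool. It was at least 2.37-fold lower in the Misr2-/- pool, and with this floor 11 of 11432 measured genes had a lower value. Rpl39, its X-linked paralogue made in most cells, had 331.1 in the Misr2-/- pool and 261.6 in the Misr2+/- pool, a log2 difference of 0.08 (0.34 as deposited and -0.32 against the hybridisation spikes). Relative to the array medians the Rpl39 value was smaller than the spread between probe sets, and as deposited and against the spikes it was larger. For the other genes past 1.5-fold, 14 measured genes had a lower value than Dazl, 19 than Dppa3 and 20 than Dppa5a. These genes were picked with their difference known, so nothing is read from the ranks.

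Kit, the receptor tyrosine kinase for stem cell factor, is expressed by germ cells and also by melanoblasts, mast cells and blood progenitors. Its brighter probe set (1452514_a_at) had a signal of 451.9 in the Misr2-/- pool and 311.9 in the Misr2+/- pool, a log2 difference of 0.28, opposite in sign to Dazl and Dppa3 and negative, at -0.13, against the hybridisation spikes. The dimmer probe set (1415900_a_at) had 111.9 in the Misr2-/- pool and 94.7 in the Misr2+/- pool, both under the floor. Kitl, its ligand, had 2129.1 in the Misr2-/- pool and 1960.3 in the Misr2+/- pool, a log2 difference of -0.14 (0.12 as deposited). Of 6 melanoblast markers, 5 were under the floor in both pools and Mitf stood at -0.02 (0.24 as deposited). The 6 summed to 4.32 array medians in the Misr2-/- pool and 4.24 in the Misr2+/- pool, and against the spikes the direction turns. Of 7 markers of mast cells and blood progenitors, 4 were measured, with Myb at 0.76, the mast cell protease Cpa3 at 0.39, Hdc at 0.10 and Gata2 at -0.30 (against the spikes Myb alone stayed above 0). The list summed to 30.8 array medians in the Misr2-/- pool and 34.0 in the Misr2+/- pool, of which Gata2 alone gave 22.4 and 27.5. As deposited the direction of the sum turns, with 4292 in the Misr2-/- pool and 3961.6 in the Misr2+/- pool. Ano1, which with Kit marks the pacemaker cells of smooth muscle, stood at -0.13 (0.13 as deposited). Whether any of these cells contributed to the Kit signal was not tested.

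**Figure D2:**
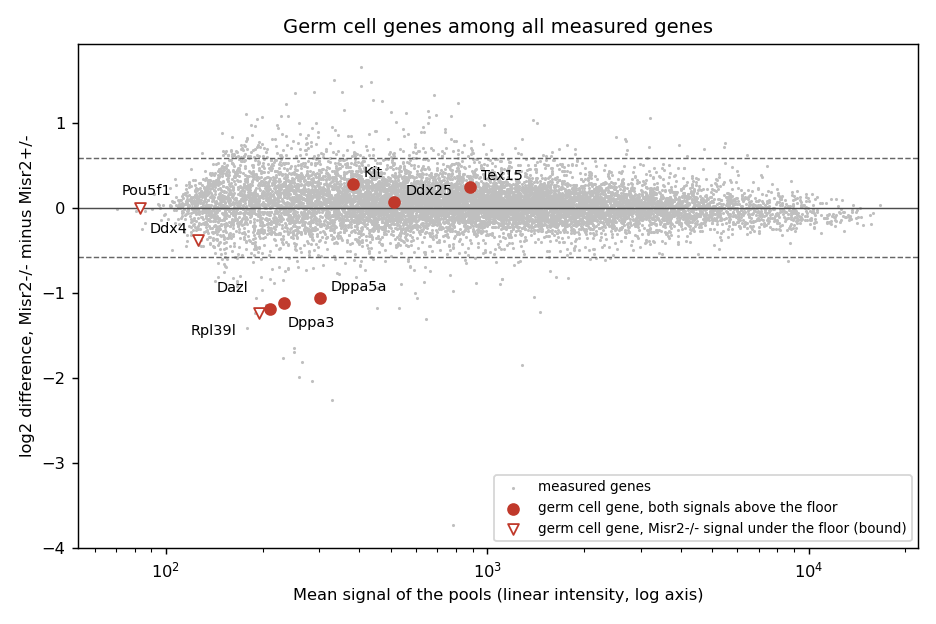
Log2 difference (vertical axis, Misr2-/- minus Misr2+/-, relative to the array medians) against mean signal (horizontal log axis, linear intensity) for 11432 measured genes, with the 9 measured germ cell genes in colour and dashed lines at 1.5-fold. Dazl, Dppa3, Dppa5a and Rpl39l lie below the lower dashed line at mean signals from 195.1 to 301.05, while Kit, Tex15 and Ddx25 lie inside the cloud.

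The authors' deposited table of fold changes, which lists 739 probe sets with a fold of at least 2 in either direction, held 7 of the 12 probe sets. They belonged to 6 genes, and the authors' deposited table gave all of them as lower in the Misr2-/- pool. Its folds were 2.98 for Mael, 2.91 for Rpl39l, 2.89 for Pou5f1, 2.70 and 2.30 for the probe sets of Dazl, 2.21 for Dppa3 and 2.12 for Dppa5a, from the authors' deposited table without a floor. Over all probe sets the authors' deposited table listed 0.897% as lower and 0.744% as higher in the Misr2-/- pool. Ddx4, Kit, Tex15 and Ddx25 were not in it. With the scaling of that table, 6226 probe sets differed at least 2-fold, of which 738 were listed, so the list had been filtered further, by a step that the labels and files do not record.

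A wider list of germ cell genes lay on both sides of 0. Of 45 further genes shared by male and female germ cells, 40 had a probe set of their own, 24 of them were under the floor in both pools and 16 were measured. Among the measured genes 8 were below and 8 above 0, with a median of 0.07 against 0.04 over all measured genes. As deposited 3 were below and 13 above, and against the spikes 13 below and 3 above. These scalings move every measured gene alike, 0.26 up as deposited and 0.40 down against the spikes. The share of all measured genes was not counted under them, so nothing is read from these counts. Dppa4, a chromatin protein of pluripotent cells and early germ cells, was the one gene at least 1.5-fold lower, with 84.6 in the Misr2-/- pool and 205.3 in the Misr2+/- pool, at least 1.76-fold. Tex19.1, which restrains transposons in germ cells and placenta, had 72.8 in the Misr2-/- pool and 158.8 in the Misr2+/- pool, at least 1.36-fold lower, and Alpl, the alkaline phosphatase used to stain primordial germ cells, had a log2 difference of -0.36. As deposited these values were -0.56, -0.19 and -0.10. The highest values were those of Tfap2c (1.10, a lower bound), Prdm1 (0.99) and Rbm46 (0.45). Tfap2c and Prdm1 specify primordial germ cells in the mouse but are also expressed in epithelia.

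The dim members of this list can be read only by their listing and rank. The authors' deposited table listed 6 of the 40 genes as lower in the Misr2-/- pool, namely Dppa4, Tex19.1, Asz1, Sox2, Trap1a and Morc1, and 1, Tfap2c, as higher. Among all 18193 named genes it listed 1.57% as lower and 1.29% as higher. Asz1, a piRNA pathway protein, had 53.4 in the Misr2-/- pool and 97.7 in the Misr2+/- pool on the listed probe set, and Trap1a, a gene expressed in testis and placenta, had 28.7 in the Misr2-/- pool and 93.7 in the Misr2+/- pool. Both, with Sox2 and Morc1, were under the floor in both pools. By percentile rank within each array, which no scaling changes, 22 of the 40 genes were lower in the Misr2-/- array, against 46% of all named genes, and 7 of the 10 genes described above were lower.

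Most genes that mark germ cells of a given sex were too dim to compare. Of 7 male germ cell genes with a probe set of their own, 6 were under the floor in both pools, Dnmt3l, Piwil4 and Piwil1 among them, and Lefty1, a secreted inhibitor of Nodal, stood at 0.40 with a Misr2+/- signal just above the floor (-0.00 against the spikes). Of 15 genes of meiotic entry, 10 were under the floor in both pools, among them Stra8, the switch into meiosis, and Sycp3 and Sycp1 of the synaptonemal complex. The 5 measured ones ran from -0.34 for Rec8, a meiotic cohesin, and -0.30 for Stag3 to 0.64 for Ythdc2, with Dmc1 at 0.09 and Syce2 at 0.25. The labels give no sex for the embryos. Eif2s3y, a Y-linked gene, had 1541.9 in the Misr2-/- pool and 1199.7 in the Misr2+/- pool, and Kdm5d and Uty were above the floor in both pools as well. All 3 probe sets of Xist, the RNA of the inactive X chromosome in females, were under the floor in both pools.

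**Figure D3:**
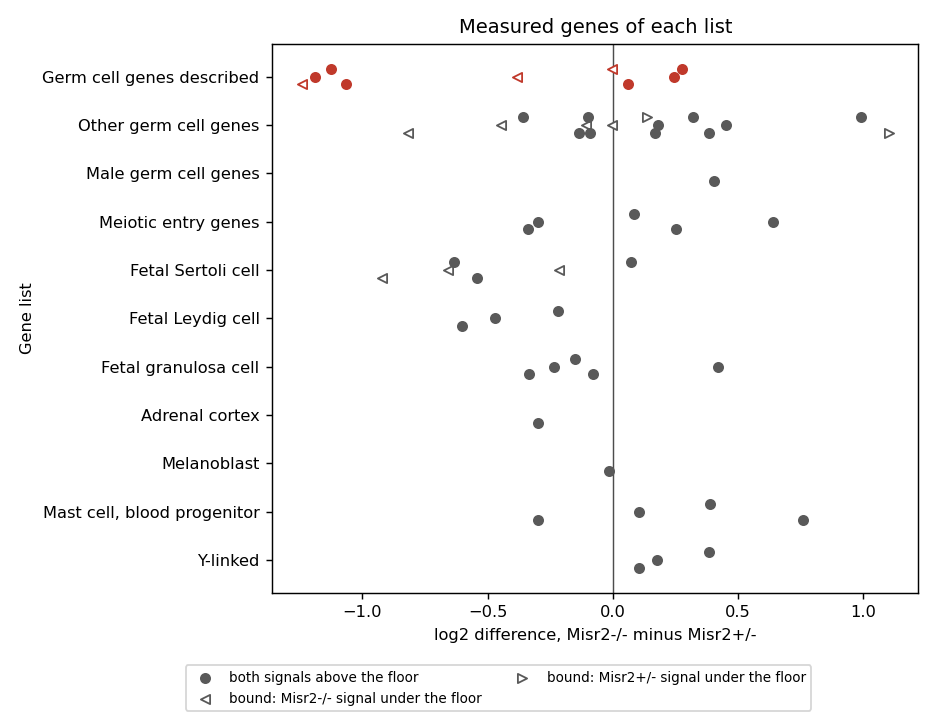
Log2 difference (horizontal axis, Misr2-/- minus Misr2+/-, relative to the array medians) of the measured genes of each list, 1 symbol per gene, with open triangles for bounds. The germ cell genes described run from -1.24 to 0.28, the other germ cell genes from -0.82 to 1.10 and the Sertoli cell markers from -0.92 to 0.07.

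Markers of Sertoli and Leydig cells, the somatic cells of the testis, were mostly lower in the same pool. Of 9 Sertoli cell markers with their own probe set, 6 were measured and 5 were below 0, beside 42.3% of all measured genes. As deposited 4 were below 0, where Dhh turned positive only because its Misr2-/- signal was raised to the higher floor of that array. The Dhh signals were 100.3 in the Misr2-/- pool and 135.4 in the Misr2+/- pool. At least 1.5-fold lower were 3 markers, beside 0.883% of all measured genes. As deposited 1 marker was, and against the spikes 5 were, where the share of all measured genes was not counted. The 3 were Cst9, with 111.9 in the Misr2-/- pool and 220.8 in the Misr2+/- pool, Defb19 and Sox9. Sox9 rests on 1 of 3 probe sets, the others being under the floor in both pools. Aard had 673.4 in the Misr2-/- pool and 820.6 in the Misr2+/- pool, a log2 difference of -0.54. Ptgds, the only measured marker above 0, had 749.5 in the Misr2-/- pool and 596.3 in the Misr2+/- pool. Its log2 difference was 0.07 (-0.33 against the spikes), and 0.25 on its dimmer probe set. Cst9, Defb19 and Dhh were above the floor in the Misr2+/- pool only, which fixes the direction of their difference. The counts are therefore partly set by the floor. The 9 markers summed to 15.3 array medians in the Misr2-/- pool and 20.3 in the Misr2+/- pool. Amh, the defining product of fetal Sertoli cells, had 5.5 in the Misr2-/- pool and 19 in the Misr2+/- pool, far under the floor in both. Of 4 Leydig cell markers, 3 were measured and below 0, from -0.60 for Cyp17a1 to -0.22 for Cyp11a1 (0.04 as deposited). Star was under the floor in both pools, and its probe sets ran both ways. Its brightest had 135.7 in the Misr2-/- pool and 81.7 in the Misr2+/- pool, and another had 55.1 and 90.9. The 4 markers summed to 5.65 array medians in the Misr2-/- pool and 7.23 in the Misr2+/- pool. Of 6 granulosa cell markers, 5 were measured and 4 of these were below 0 (1 as deposited), from -0.33 for Bmp2, while Foxl2 stood at 0.42. They summed to 19.7 array medians in the Misr2-/- pool and 21.3 in the Misr2+/- pool (as deposited the direction turns, with 2741 and 2485.6). Of 5 adrenal cortex markers, Mc2r alone was measured, at -0.30, and the list summed to 2.999 array medians in the Misr2-/- pool and 3.226 in the Misr2+/- pool (as deposited the direction turns, with 418.1 in the Misr2-/- pool and 375.8 in the Misr2+/- pool). The 10 germ cell genes, picked on this contrast, summed to 20.7 array medians in the Misr2-/- pool and 26.6 in the Misr2+/- pool. Sums of the other germ cell lists ran the other way relative to the medians, and against the spikes each of these directions turns. The further shared genes had 93.4 in the Misr2-/- pool and 84.0 in the Misr2+/- pool, of which Ifitm3 alone gave 31.6 and 28.0. Genes of meiotic entry had 33.2 in the Misr2-/- pool and 28.6 in the Misr2+/- pool, of which Syce2 alone gave 20.5 and 17.2. Male germ cell genes had 2.23 in the Misr2-/- pool and 2.15 in the Misr2+/- pool. The part of gonadal tissue in the germ cell values was not tested, and in pooled tissue fewer cells of a type and less RNA per cell cannot be told apart.

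Dazl, Dppa3, Dppa5a and Rpl39l were negative under each setting tried, while the size of the difference moved. The sign was largely fixed in advance. Leaving out the division by the medians adds only 0.26, and a Misr2-/- signal alone under the floor gives a negative bound relative to the medians. The kept sign is therefore no support beyond the reported values. Across 11 settings, the reported one included, Dazl ran from -1.59 to -0.38, Dppa3 from -1.53 to -0.50, Dppa5a from -1.47 to -0.81 and Rpl39l from -1.65 to -0.37. With the floor at the 60th percentile all 4 had a Misr2-/- signal under it, and of the resulting bounds only that of Dppa5a was past 1.5-fold. Ddx4 was negative in each of the 10 settings that measured it, from -0.86 to -0.12. Kit, Tex15 and Ddx25 were above 0 in each setting that measured them but the spike scaling. Pou5f1 changed sign only as deposited, at 0.26, where the floors of the arrays differ by more than its signal clears them.

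**Figure D4:**
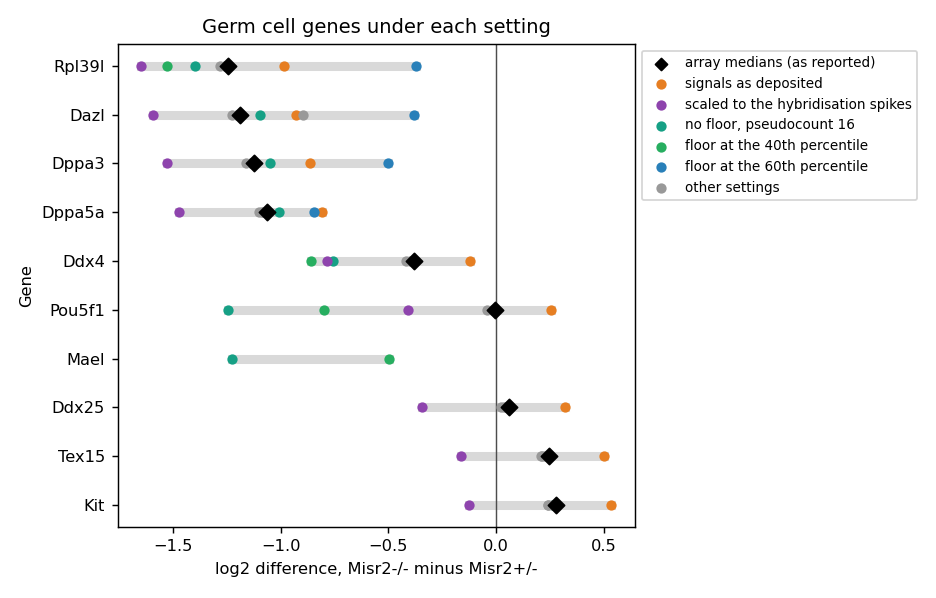
Log2 difference (horizontal axis, Misr2-/- minus Misr2+/-) of each germ cell gene under the reported setting (diamonds) and the alternatives (circles), with grey bars over the range. Rpl39l, Dazl, Dppa3 and Dppa5a lie left of 0 throughout, with highest values from -0.81 to -0.37, and Mael appears under 2 settings only.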

How the data were processed

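Total RNA was labelled with biotin and measured on 1 single-colour Affymetrix array per pool. The deposited table gives a linear intensity for every probe set on each array. GCOS and MAS5 appear, with no version or role, per the submitters' processing notes, and the scaling of the deposited intensities was not given in the sources used here. The authors' deposited table of fold changes holds intensities equal to those of the value table times 0.901 for the Misr2-/- and 1.09 for the Misr2+/- array, and a signed fold, treated as a score. No detection calls were used. The array count limits the precision.

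Of 45101 rows, 64 controls were left out. Genes were named only from probe sets with 1 symbol in the platform annotation (34945 probe sets, 932 had several and 9160 were not listed). Each gene was represented by its measured probe set with the highest mean intensity. Each array was divided by its median, the floor was that median, and the threshold was 1.5-fold. With 1 array per group no p-values are given. All 10 genes and all their probe sets were named, as were Amhr2, the sex-linked genes, Kitl and the paralogues. From each marker list up to 3 lowest and 3 highest measured genes were named. Asz1 and the other dim genes in the authors' table, and the dim genes Dnmt3l, Piwil4, Piwil1, Stra8, Sycp3, Sycp1, Amh and Star, were named after their values were seen. The members, lists and settings were chosen with earlier results of these data known, and the ridge markers, the signal range of the lower genes and 2 of the alternatives (the constants of the authors' table and the hybridisation spikes) after the values were seen. Alternatives changed the scaling, the floor, the probe set that stands for a gene, the probe sets used and the threshold. The procedure was tested on simulated data. Changes were set there only in probe sets with a Misr2+/- signal brighter than those of Dazl, Dppa3, Dppa5a and Rpl39l. Dim signals near the floor were therefore not covered. Python 3.11.15, numpy 2.4.6 and pandas 2.3.3 were used.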

Additional observations from a re-analysis of the deposited data

How the results depend on the processing

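The count of the 10 germ cell genes that were at least 1.5-fold lower in the Misr2-/- pool was 4. It was 4 to 6 under scaling to the 75th percentile, quantile normalization, the constants of the authors' table, the spikes and the signals as deposited. The same range held with a floor at the 40th percentile, the median of probe sets and a 2-fold threshold. It also held without probe sets whose names end in _a_at, _s_at or _x_at. The count was 1 with the floor at the 60th percentile, which leaves 7 genes measured, and 7 with no floor and a pseudocount of 16, which counts all 10 genes. The median of the measured genes was -0.38, and it was -0.12 as deposited, -0.83 with the floor at the 40th percentile, -1.03 without a floor and -0.79 against the spikes. Without probe sets of those endings, which removes Kit, it was -0.72. The count of other germ cell genes at least 1.5-fold lower was 1, and it was 0 as deposited, at 2-fold and with the 60th percentile as floor, 5 with the floor at the 40th percentile, 9 without a floor and 3 against the spikes. With fewer or more genes above the floor these counts change by construction, the 5 being of 23 genes and the 9 of 40. The share of all measured genes was counted under the reported scaling and floor only, at 0.883% for 1.5-fold and 0.219% for 2-fold lower. The counts under other scalings and floors therefore have no share to set them against. Of the 10 genes, the 4 at least 1.5-fold lower kept their sign in all 11 settings, which was largely fixed by the size of the reported values and by the floor. Pou5f1 was at -0.80 with a 40th-percentile floor, at -1.25 without one and at 0.26 as deposited. Leaving out a replicate was not run, since each group has 1 array. No paired analysis was possible because each group has 1 array. Signals near or under the array medians limit what can be said of Ddx4, Pou5f1 and Mael.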
